A study of Mus musculus with 12 samples.

Results

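The genes described here are 9 neuronal genes used to follow pelvic ganglion neurons: Phox2a, Hand2, Chrna3, Prph, Stmn2, Gap43, Snap25, Elavl4 and Uchl1. A probe set was taken where its only gene symbol was one of these, which gave 20 of the 45037 probe sets other than controls and 9 of the 18193 genes with a probe set of 1 symbol. Whole bladders of newborn FVB/N mice, an inbred strain, at postnatal day 1 had been profiled on 12 one-colour Affymetrix arrays to ask what expression of a smooth muscle transgene does to the bladder's expression profile. There were 3 SMGA/EGFP arrays, from mice whose green fluorescent reporter is driven by the smooth muscle gamma actin promoter, 3 SMAA/EYFP arrays, from mice whose yellow fluorescent reporter is driven by the smooth muscle alpha actin promoter, and 6 wild-type arrays. Every animal was labelled male, no sample was pooled, and RNA from each was amplified in 1 round. Both transgenes are directed to smooth muscle. Dams were FVB/N and the transgene came from the sire, so genotype cannot be told apart from sire or litter, and since no label ties an array to a litter, p-values measure only the spread between these samples.

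Pelvic ganglia lie beside the bladder neck and supply the bladder with sympathetic and parasympathetic axons; their neurons descend from the neural crest, and small clusters of them can lie on or in the bladder wall. The arrays do not show which ganglion a messenger RNA came from. Autonomic neurons are set up by transcription factors such as Phox2a and Hand2, receive input through nicotinic acetylcholine receptors, and share a cytoskeleton and release machinery with other neurons.

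The deposited values are linear intensities, and levels below are either those intensities or log2(intensity + 16) after quantile normalization between arrays. Median intensity per array ran from 229.39 to 305.94. The database's record numbers list the arrays in 2 runs of 6, first the 3 SMGA/EGFP arrays with wild type 1 to 3, then the 3 SMAA/EYFP arrays with wild type 4 to 6. This is only the order of the records; wild type is the only group with arrays in both runs. All 14 smooth muscle and all 16 urothelial marker genes lay among the more intense part of the probe sets, as the labelled tissue requires. The array named wild type 4 did not match its labelled sex: Xist read 29603.7 there, against 80.1 to 250.4 on the other arrays, and the Y-linked gene Eif2s3y read 26.7, against 3283.9 to 5095.9. Some medians, counts of passing or separated probe sets, correlated pairs and some list correlations are also given without it. Values by gene include it.

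Of the 20 probe sets, 12 had a mean above the median of all probe sets (log2 8.02) and were tested, at least 1 for each gene. The 8 others (3 of Prph, 2 of Chrna3, 2 of Hand2 and 1 of Snap25) were dimmer. The probe set of highest mean stands for its gene below. The 2 tested probe sets of Stmn2 correlated at 0.97 across arrays and those of Elavl4 at 0.93 and 0.97 with the main one. The brighter of the untested probe sets of Chrna3 followed its partner too (r = 0.95), whereas the 3 dim Prph probe sets did not follow theirs (r = -0.57 to 0.32).

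The genes lie apart on different chromosomes, and the promoters of 4 are shown because 3 of these genes (Prph, Phox2a and Chrna3) moved together across the arrays and the fourth, Hand2, did not. The sequences are the 250 bases before the start listed by RefSeq on GRCm38.p6, 5′ to 3′ on the gene's strand. Capitals mark a TATA box (TATAAA) or an E-box (CANNTG), the class of site that basic helix-loop-helix factors such as Hand2 bind.
Prph, chr15:99054924-99055173, plus strand, 65.2% G or C: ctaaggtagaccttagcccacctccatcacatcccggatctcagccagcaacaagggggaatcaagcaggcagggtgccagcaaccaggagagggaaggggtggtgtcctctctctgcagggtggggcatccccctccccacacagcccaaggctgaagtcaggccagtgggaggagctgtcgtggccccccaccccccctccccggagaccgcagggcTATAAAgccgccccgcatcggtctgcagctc
Phox2a, chr7:101818063-101818312, plus strand, 70.4% G or C: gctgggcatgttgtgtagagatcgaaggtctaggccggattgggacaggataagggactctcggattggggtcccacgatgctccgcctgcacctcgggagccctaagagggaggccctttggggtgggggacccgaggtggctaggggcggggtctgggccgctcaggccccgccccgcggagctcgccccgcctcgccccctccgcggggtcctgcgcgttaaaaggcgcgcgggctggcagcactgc
Chrna3, chr9:55026563-55026812, minus strand, 63.2% G or C: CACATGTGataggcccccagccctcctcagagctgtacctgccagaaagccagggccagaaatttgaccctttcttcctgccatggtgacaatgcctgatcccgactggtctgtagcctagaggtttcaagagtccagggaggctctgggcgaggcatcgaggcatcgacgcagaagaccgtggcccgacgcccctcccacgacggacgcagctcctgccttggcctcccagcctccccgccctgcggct
Hand2, chr8:57320733-57320982, plus strand, 49.2% G or C: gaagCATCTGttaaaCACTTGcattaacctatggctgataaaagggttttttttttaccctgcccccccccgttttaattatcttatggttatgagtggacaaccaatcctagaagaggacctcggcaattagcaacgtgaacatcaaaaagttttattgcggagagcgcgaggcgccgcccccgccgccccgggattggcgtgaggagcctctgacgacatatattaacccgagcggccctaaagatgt

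The Prph window lies inside the span RefSeq gives for the gene, 99053579 to 99058978. Its TATA box begins 31 bases and ends 26 bases before the listed start, and 13.0% of the 27025 promoters searched hold these letters on either strand. The 2 E-boxes of Chrna3 overlap each other at the far end of the window, and the 2 of Hand2 begin 246 and 235 bases before the start; 66.1% of all promoters hold at least 1. Entries existed for 6 of the 9 genes, Uchl1 and Elavl4 being the others with 1, and neither held a TATA box or an E-box. One part of the neuronal repressor element, GGACAG, was found in Phox2a alone of the 6, against 18.7% of all promoters. Its other part, CAGCACC (5.70% of all promoters), the paired homeodomain site, TAAT and ATTA with 3 bases between them (0.470%), and the cyclic AMP response element TGACGTCA (1.60%) were in none of the 6. A match is a description of the letters and does not show that a factor binds there.

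The neuron genes differed between arrays far more than most of the array did. The standard deviation (SD) over the 12 arrays had a median of 1.11 on the log2 scale over the 12 tested probe sets of these genes, against 0.24 over all 22518 tested. In 10 of the 12 it lay above the 90th percentile of all tested probe sets, 0.45, the exceptions being Uchl1 (0.35) and Hand2 (0.17). In whole tissue, fewer neurons in the sample and less RNA per neuron cannot be told apart.

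Phox2a, a homeodomain factor that specifies noradrenergic and other autonomic neurons, read 713, 1177 and 707 on the SMGA/EGFP arrays, 388, 288 and 937 on the SMAA/EYFP arrays, and 1562.9, 975.0 and 339 then 295, 267 and 373 on wild type 1 to 3 and 4 to 6 (intensity). Its highest array was 5.23-fold above its lowest after normalization, both wild type. Hand2, a basic helix-loop-helix factor of sympathetic neurons that limb, heart and other mesenchyme also use, behaved otherwise. It read 5882, 6308 and 5236 in SMGA/EGFP, 5718, 5420 and 7074 in SMAA/EYFP, and between 5011 and 7318 in wild type, a 1.48-fold range over all arrays after normalization, with no group or run apart.

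Chrna3, the nicotinic receptor subunit that carries fast transmission in autonomic ganglia, read 573, 724 and 365 in SMGA/EGFP. SMAA/EYFP arrays gave 136, 158 and 472, and wild type gave 860, 468 and 198 on first-run arrays and 114, 109 and 92.8 on second-run arrays. Every first-run array of wild type was above every second-run one, and the third SMAA/EYFP array stood with the first run.

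Prph, an intermediate filament of peripheral neurons, had 2098.5, 3463 and 1957 in SMGA/EGFP bladders, 229, 814 and 2646 in SMAA/EYFP bladders, and in wild type 4301, 3505 and 657 on first-run and 421, 211 and 234 on second-run arrays. Stmn2, a regulator of microtubules in growing axons, had 5185, 9535 and 4599 in SMGA/EGFP, 831, 1856 and 6957 in SMAA/EYFP, and 12739, 8184 and 2191 then 1190.2, 618 and 1216 in the same 2 sets of wild type. The ranges were 18.4-fold for Prph and 20.0-fold for Stmn2 after normalization. Gap43, a protein of growth cones, read 1805, 3029 and 2025 in SMGA/EGFP and 359.9, 865 and 2453 in SMAA/EYFP. Its wild-type arrays read 4672, 2669.7 and 871 on first-run and 499, 523 and 602 on second-run arrays.

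Snap25, a component of the complex that fuses synaptic vesicles with the membrane, had the widest range of the 9 genes, 46.1-fold after normalization. It read 2634, 4503 and 1991 in SMGA/EGFP, 310.0, 769 and 3014 in SMAA/EYFP, and 6743, 3224 and 840.1 then 511, 128 and 357 in wild type. Elavl4, an RNA-binding protein of neurons, read 751, 1431 and 931 in SMGA/EGFP and 148, 415 and 1236 in SMAA/EYFP, and 1956, 1148 and 454 then 236, 166 and 255 in wild type. Uchl1, a ubiquitin hydrolase abundant in neurons, spanned only 2.25-fold after normalization. It read 5498, 7670.2 and 5228 in SMGA/EGFP, 5215, 6978 and 7239 in SMAA/EYFP, and 3389 to 6004 in wild type, in whose second run the highest and the lowest wild-type array both lay. Wild type 1 was the highest of the 12 arrays for 8 of the 9 genes, all but Uchl1.

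**Figure D1:**
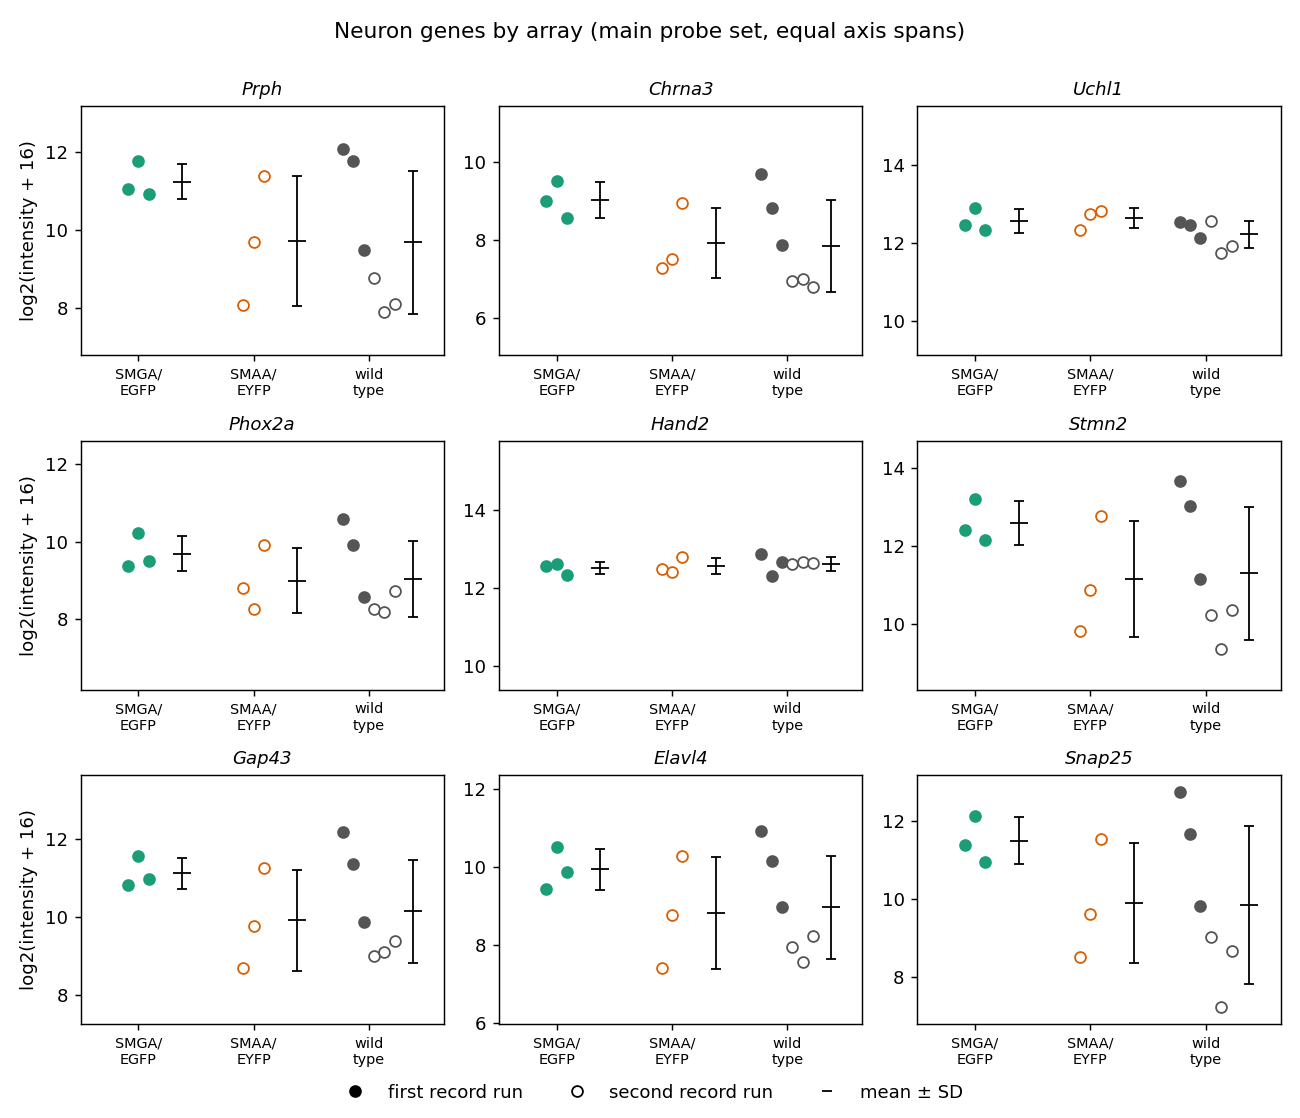
Level of each neuron gene on each array, as log2(intensity + 16) after quantile normalization, for SMGA/EGFP (3 arrays), SMAA/EYFP (3) and wild type (6); every panel spans the same number of log2 units. Filled circles are arrays of the first record run, open circles those of the second, and the bars beside them give mean ± SD of the group; the wild-type arrays of the 2 runs do not overlap in 6 genes, while Hand2 and Uchl1 stay within narrow bands.

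The widest estimated differences lay within wild type, between the arrays of the 2 record runs. Snap25 averaged log2 11.40 ± 1.48 on first-run and 8.30 ± 0.96 on second-run wild-type arrays (SD, n = 3 each), a difference of 3.10 ± 0.78 (SE, 95% interval 1.41 to 4.79). Prph differed by 2.87 ± 0.74, Stmn2 by 2.64 ± 0.69, Elavl4 by 2.11 ± 0.61, Gap43 by 1.98 ± 0.59, Chrna3 by 1.88 ± 0.47 and Phox2a by 1.29 ± 0.48. The 95% intervals of Uchl1 (0.31, from -0.16 to 0.78) and Hand2 (-0.03, from -0.35 to 0.29) included 0. The median over the 9 genes was 1.98, against -0.02 over all tested probe sets. None of the 12 probe sets passed in limma after Benjamini-Hochberg adjustment (lowest adjusted p = 0.441), nor did any other of the 22518 tested (0% called). Unadjusted, limma put 10 of the 12 below 0.05, against 8.16% of all tested. Most of these genes covary across arrays and some have several probe sets. Counts of probe sets or genes going one way, here and below, are therefore not independent results. In 9 of the 12, of 6 genes, every first-run wild-type array lay above every second-run one, against 6.06% of all tested. Some of these had a second-run wild-type mean below the filter level of log2 8.02. They were Chrna3 (6.92), the main Elavl4 probe set (7.91) and another of Elavl4 (7.85). These were tested only because they read higher on other arrays, which limits the comparison with all tested. Phox2a, Uchl1 and Hand2 overlapped between the runs.

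This result turned on 1 array. Wild type 3 had low levels for a first-run array, and without it 9 of the 12 probe sets passed in limma, of 423 called in the whole table. The array is singled out by those same low levels, so the p-values without it are not support for a difference between the runs. Snap25 then differed by 3.90 ± 0.75 (limma, Benjamini-Hochberg adjusted p = 0.0248), Prph by 3.69 ± 0.67 (adjusted p = 0.0209) and Phox2a by 1.85 ± 0.42 (adjusted p = 0.0448). Uchl1, Hand2 and 1 of 3 Elavl4 probe sets (adjusted p = 0.0536) did not pass. With arrays weighted by their fit, 5 of the 12 passed, of 175 called among all 22518: the main probe sets of Prph, Chrna3, Stmn2 and Snap25 and 1 of Elavl4. The weights were estimated from these same values, so the weighted fit is no separate support either. Leaving out wild type 4 gave 0 passing and a median of 1.90, with 11 of 12 below an unadjusted 0.05 in limma (1653 of all 22518) and 10 with no overlap of the runs, against 11.5% of all tested.

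Between the genotypes no neuron gene passed. In SMGA/EGFP against wild type, 8 of the 9 genes were higher by estimate, with a median log2 difference of 0.98 against -0.01 over all tested, yet 0 of 12 probe sets passed in limma (lowest adjusted p = 0.724; 0.0622% of all tested called) and 0 were below an unadjusted 0.05, against 6.94% of all tested. The level of Snap25 was log2 11.49 ± 0.60 in SMGA/EGFP (SD, 3 arrays) and 9.85 ± 2.03 in wild type (SD, 6 arrays), a difference of 1.64 ± 0.98 (SE). The smallest p belonged to Chrna3, at 1.18 ± 0.59 (SE), a 2.26-fold difference with limma adjusted p = 0.724. Prph differed by 1.57 ± 0.91, Stmn2 by 1.30 ± 0.85 and Hand2 by -0.11 ± 0.12, and the SMGA/EGFP arrays lay within the wild-type range for each gene save Uchl1, whose second SMGA/EGFP array was higher. Against the first-run wild type alone the median was 0.00 and 0 of 12 passed in limma (adjusted p = 1.00 in each; 0.0444% of all tested called), with 0 below an unadjusted 0.05 against 2.98% of all tested. Snap25 then differed by 0.09 ± 0.78, Prph by 0.13 ± 0.74 and Stmn2 by -0.02 ± 0.69. These intervals remain wide, from -1.60 to 1.77 for Snap25, and do not show equal levels. Without wild type 4 the median against all other wild type was 0.78.

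SMAA/EYFP against all wild type gave a median of -0.05, with 4 genes higher and 5 lower, 0 of 12 passing in limma (lowest adjusted p = 0.991; 0% of all tested called) and 0 below an unadjusted 0.05, against 4.81% of all tested. Prph averaged 9.71 ± 1.66 (SD, n = 3) in SMAA/EYFP and 9.67 ± 1.83 (SD, n = 6) in wild type. Against the second-run wild type alone the median was 0.91, 8 of 9 genes were higher by estimate, and again 0 of 12 passed (lowest adjusted p = 0.967; 0% called). Chrna3 was higher by 1.00 ± 0.47 and was the only one of the 12 probe sets with every SMAA/EYFP array above every second-run wild-type array, against 5.60% of all tested. Its levels there were low, with a second-run wild-type mean of log2 6.92, below the filter level of 8.02. In the brighter untested Chrna3 probe set the groups overlapped, SMAA/EYFP array 1 reading 24.0 and wild type 4 reading 27.3 (intensity). Uchl1, at 0.57 ± 0.22 (95% interval 0.10 to 1.04), was the only one of the 12 below an unadjusted 0.05 in limma, against 4.39% of all tested (limma adjusted p = 0.967). The SMAA/EYFP arrays differed among themselves. Averaged over the 9 genes, the log2 deviation from the 12-array mean was -1.15 on array 1, -0.46 on array 2 and 0.88 on array 3. Without array 3 the median against all wild type was -0.80. Without wild type 4 the medians were -0.15 against the other wild type and 0.93 within the run. Within the run 2 of 12 probe sets were then below an unadjusted 0.05 in limma (1296 of all 22518) and 4 had every SMAA/EYFP array above both remaining wild-type arrays, against 12.9% of all tested. Against the other wild type 1 of 12 was below an unadjusted 0.05 (1267 of all 22518).

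Directly between the transgenic groups, SMGA/EGFP minus SMAA/EYFP had a median of 1.12 and 0 of 12 probe sets passed in limma (lowest adjusted p = 0.630; 0.0799% of all tested called), with 0 below an unadjusted 0.05 against 9.32% of all tested. Snap25 differed by 1.60 ± 1.13, Prph by 1.53 ± 1.06 and Uchl1 by -0.08 ± 0.23. Each of these groups lies in 1 record run, so run and transgene cannot be told apart here. The comparisons with all wild type share those control arrays. For each gene the within-run effect of SMGA/EGFP was below that of SMAA/EYFP, with a median difference of -0.77, and the test of that difference passed in 0 of 12 probe sets (adjusted p = 1.00 in each; 0.00888% of all tested called) with 0 below an unadjusted 0.05 against 2.70% of all tested. With wild type 4 left out the median was -0.79 and 0 passed (1 of all 22518 called). In that fit 1 of 12 was below an unadjusted 0.05 in limma (644 of all 22518).

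**Figure D2:**
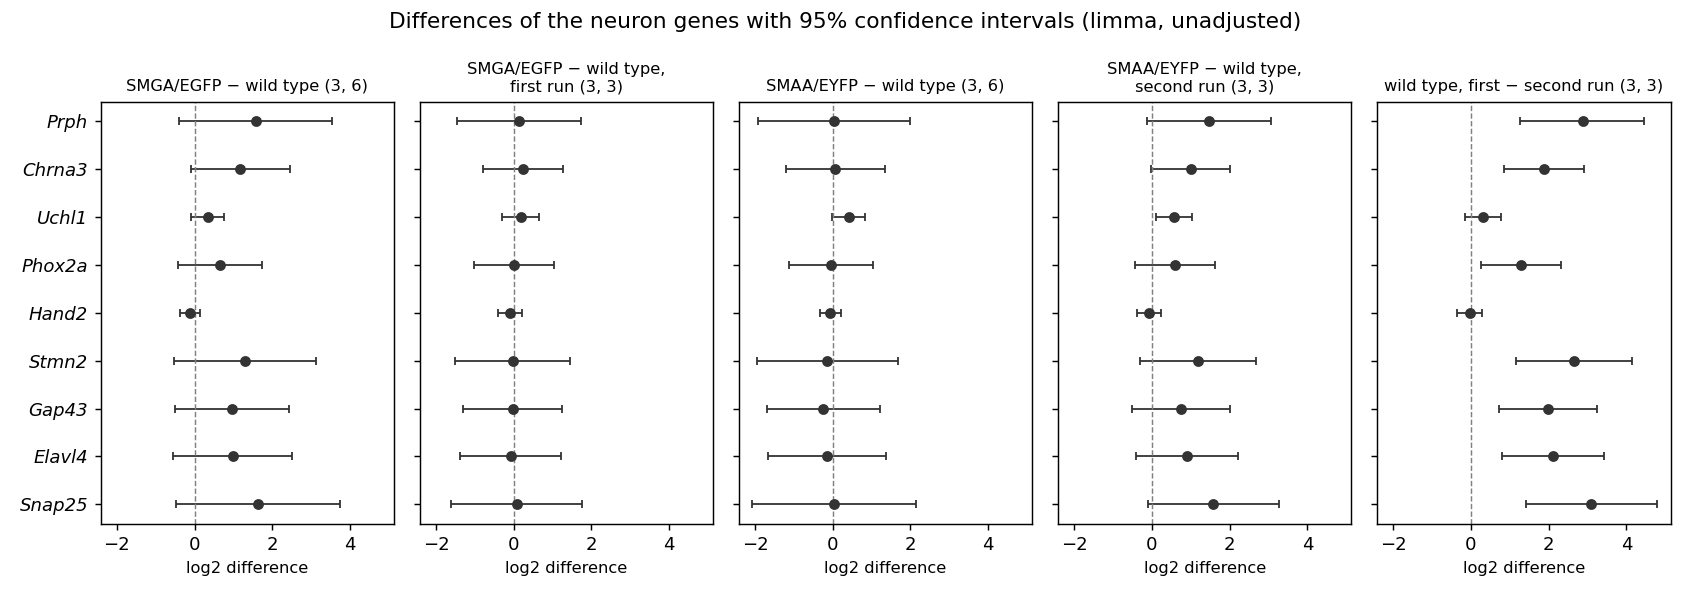
Log2 difference of each neuron gene (main probe set) with its unadjusted 95% confidence interval from limma, in 5 comparisons, with the number of arrays on each side in parentheses. Intervals for the genotypes cross 0 except that of Uchl1 in SMAA/EYFP against the second-run wild type. In wild type of the first run against the second, the whole intervals of 7 genes lie right of 0.

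From array to array, 7 of the 9 neuron genes covaried tightly. The 9 genes were chosen with earlier results of these data known, so the p-values of their pairs describe them and do not test a set chosen beforehand. Of the 36 pairs of the 9 genes, 24 had a correlation past the threshold by Pearson's r and 21 by Spearman's rho (permutation test, 100000 resamples, two-sided, Benjamini-Hochberg over the 36 pairs). The 21 pairs among Phox2a, Chrna3, Prph, Stmn2, Gap43, Snap25 and Elavl4 had r of 0.88 to 0.99 (median 0.96) and rho of 0.84 to 0.99, with adjusted permutation p of 3.6e-05, which rests on the smallest p these resamples can give (0.00001), to 0.00072. Stmn2 and Snap25 were at r = 0.99, Prph and Stmn2 also at 0.99, and Prph and Phox2a, the weakest of the 21, at 0.88. Leaving out the 2 arrays farthest from the median of the first gene of a pair left r at 0.84 to 0.99. Within the first run, 6 arrays, r was 0.88 to 0.99, and within the second, 0.71 to 0.98. Deviations from the mean of each group in each run, which hold no difference between genotypes or runs, still gave 0.78 to 0.98. Leaving out wild type 4 gave 26 passing pairs of the 36.

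Hand2 stood apart: its 8 pairs had r of 0.00 to 0.21 and none passed (adjusted permutation p = 0.629 to 0.989). Its r with the other genes rose to as much as 0.62 in one pair and fell to -0.20 in another when the 2 farthest arrays were left out. Within the first run its r was 0.05 to 0.41 and within the second -0.11 to 0.60. On deviations from group-and-run means it was 0.22 to 0.64, which was not tested. No relation of Hand2 to the others was shown either way. Uchl1 was between. Its 7 pairs with the first set had r of 0.51 to 0.69, of which 3 passed by r, with Snap25 (adjusted permutation p = 0.0233), Prph (0.0291) and Stmn2 (0.0468), and none by rho. Those with Snap25 and Stmn2 had r of 0.36 and 0.35 without wild type 5 and 6, the 2 arrays farthest from the median of Uchl1. Within the first run, which holds neither array, both were at 0.78, and on deviations from group-and-run means at 0.76 and 0.68.

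**Figure D3:**
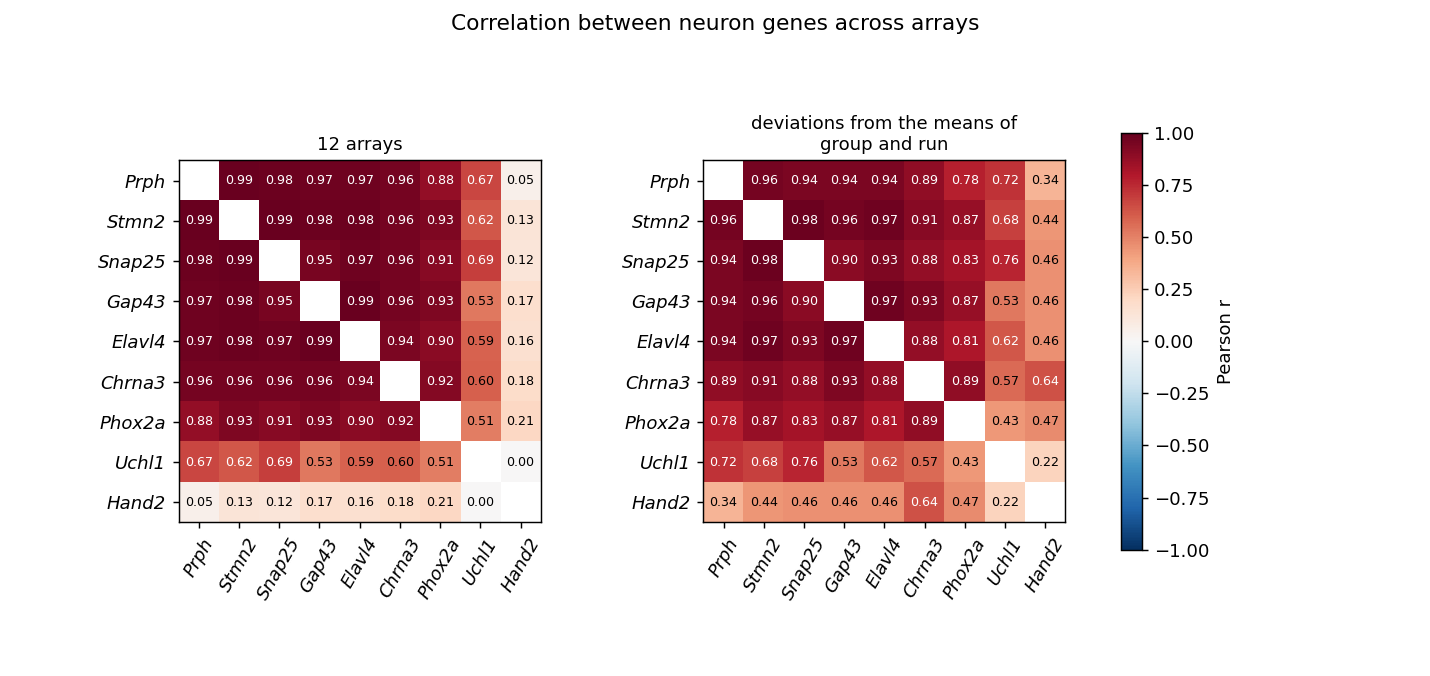
Pearson's r for every pair of the 9 neuron genes over the 12 arrays (left) and on deviations from the mean of each group in each record run (right), with blue to red running from -1 to 1. A block of 7 genes reaches 0.88 to 0.99 on the left and 0.78 to 0.98 on the right, and the columns of Uchl1 and Hand2 are paler.

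The mean log2 deviation of the 9 genes from their 12-array means gave a score for each array. It was 0.53, 1.19 and 0.42 in SMGA/EGFP, -1.15, -0.46 and 0.88 in SMAA/EYFP, and 1.5, 0.85 and -0.37 in first-run and -0.94, -1.45 and -1.0 in second-run wild type. The 6 highest arrays were 5 of the first run and SMAA/EYFP 3, and wild type 3 was the first-run array below 0. Means of the score were 0.71 ± 0.41 for SMGA/EGFP, -0.24 ± 1.03 for SMAA/EYFP and -0.23 ± 1.17 for wild type (SD over 3, 3 and 6 arrays). The SD within a group and run, pooled, was 0.74, a spread of single arrays and not the error of a difference between means. SMGA/EGFP lay above both SMAA/EYFP and wild type by more than this. So did first-run wild type (mean 0.66) above second-run wild type (mean -1.13). These differences in score were not tested. Between SMGA/EGFP and SMAA/EYFP, run and transgene cannot be told apart. Without wild type 4 the wild-type mean was -0.09 ± 1.24 (SD, 5 arrays). On a common scale the genes followed with unequal steepness. For 1 log2 unit of the mean of the other 8, Snap25 moved by 1.81, Prph by 1.67, Stmn2 by 1.53, Chrna3 by 1.00, Phox2a by 0.73, Uchl1 by 0.20 and Hand2 by 0.02. The score also ran with median intensity (r = 0.60, 12 arrays) and with the 3-prime over 5-prime ratio of the Gapdh control probe sets (r = 0.47; log2 ratio -0.06 to 0.25) and of Actb (r = 0.37; 0.58 to 0.97); their part in the covariation was not tested.

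The 12 other genes most like the neuron genes, by r with this score over the 12 arrays among 11721 genes, were Mllt11, Vat1l, Stmn3, Scg5, Nsg2, Kif5c, Slc6a15, Rtn1, Mapt, Map2, Npy and Tubb3. Their r was 0.98 to 0.99. Rtn1, a reticulon of neuroendocrine cells, spanned 5.27 log2 units over the arrays, Tubb3, the neuronal beta tubulin, 4.48, and Npy, a peptide of sympathetic neurons, 3.61. Each of the 12 also had r of at least 0.95 within either run. Leaving wild type 4 out, the lowest of their r was 0.98, and 10 of them were still among the 12 of highest r. Of all genes compared, 2.2% reached 0.80 (258 genes) and 113 reached 0.90, the median being -0.09, and 120 lay at -0.80 or below.

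Many other neuronal genes went the same way, by lists of known markers. These lists were chosen with earlier results of these data known. They also hold several of the most similar genes just named, such as Stmn3, Rtn1 and Npy. The counts below therefore describe the lists and are not separate support. Of 32 tested pan-neuronal genes, 28 had r of at least 0.80 with the score (median 0.96). The 4 of highest level were Dpysl3, a growth cone protein (r = 0.81), Rbfox3, a splicing factor of mature neurons (r = -0.37), and the neurofilaments Nefl (r = 0.98) and Nefm (r = 0.96). Nefl averaged log2 13.20 ± 0.30 in the 3 SMGA/EGFP bladders, 11.55 ± 1.77 in the 3 SMAA/EYFP bladders and 11.55 ± 2.03 in the 6 wild-type bladders (SD). Autonomic identity genes were split: 6 of 11 tested reached 0.80 (median 0.80). Isl1, a LIM homeodomain factor of sympathetic and sensory neurons, was at r = 0.96 and spanned 8.96 to 12.85, whereas Gata2 (r = 0.80), Gata3 (r = 0.74) and Tbx20 (r = -0.22), factors that other bladder cells may also use, each stayed within a narrower span (Gata3, the widest of these, 11.94 to 13.03). Of 13 tested transmitter enzymes and neuropeptides, 10 reached 0.80 (median 0.91), with Cartpt, a peptide of autonomic neurons, at r = 0.97, Ddc, the enzyme that makes dopamine, at 0.88, Penk, the enkephalin precursor, at 0.79 and Maoa, which breaks down monoamines, at -0.12. Without wild type 4 the numbers at 0.80 or more were 27 of 32, 7 of 11 and 10 of 13. In no comparison did a gene of these 3 lists pass in limma: 0 of 32, 0 of 11 and 0 of 13.

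Glial genes followed less. Of 11 tested markers of Schwann cells and satellite glia, 1 reached 0.80 (median r = 0.13), while the mean of the list had r = 0.81 with the score over 12 arrays and 0.72 and 0.70 within the first and second run (0.80 over the arrays other than wild type 4). That mean moved little, between -0.19 and 0.24. Of the 4 of highest level, Erbb3, the neuregulin receptor of Schwann cells, was at r = 0.70, Mal at 0.13, Pmp22 at -0.28 and Ednrb at -0.47, and urothelium or vessels also use several of these. The 1 gene past 0.80, named after its value was seen, was Fabp7, a fatty acid binding protein of glia (r = 0.91).

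Markers of other cell types were set against the same score. The smooth muscle list ran against it, with r = -0.80 for the list's mean over 12 arrays and -0.86 and -0.77 within the runs. The amplitude was small: in wild type all 14 genes were lower in the first run than in the second by estimate, with a median difference of -0.20, and none passed. Leukocyte (r = -0.68), mesothelial (r = -0.65), endothelial (r = -0.57) and fibroblast (r = -0.47) lists had negative r too, and urothelium had 0.49, with 0.41 and 0.76 within the runs. Prostate, seminal vesicle and Wolffian duct genes, of which 3 of 10 were tested, had 0.63 over 12 arrays and 0.71 and 0.90 within the runs. Mesothelial genes also moved with a genotype. All 7 were lower in SMGA/EGFP than in wild type by estimate, with a list median of -2.06. Of these, 4 passed in limma, against 0.0622% of all tested. Within the runs, however, their mean had r of only -0.15 and -0.20 with the neuron gene score. Skeletal muscle, present around the nearby urethra, had r = 0.56 over 12 arrays and 0.47 and 0.11 within the runs. Its summed intensity was 89504 to 139916 in SMGA/EGFP, 93261 to 123009 in SMAA/EYFP and 99494 to 144344 in wild type, with 1 of 13 tested genes at r of 0.80 or more. The brightest gene in that sum, the skeletal actin Acta1, stayed within log2 15.56 to 15.89. Named after their values were seen, 3 of the tested muscle genes varied widely: Myl1, a myosin light chain, spanned log2 7.80 to 14.21 (r = 0.83), Mylpf, another light chain, 7.26 to 13.38 (r = 0.59), and Myh3, the embryonic myosin heavy chain, 4.69 to 13.01 (r = 0.65). Some genes of the list too dim to be tested varied widely too, such as Neb (log2 4.83 to 10.8), also named after its values were seen. Of 8 tested paraganglion and chromaffin genes 6 reached 0.80, all of them genes that another neural list also holds. The 2 tested genes on no other list, named after their values were seen, were Cyb561, a cytochrome of secretory vesicles (r = 0.63), and Pnmt, the enzyme of adrenaline synthesis (r = 0.11). Over the arrays other than wild type 4, smooth muscle had r = -0.82, the prostate list 0.63, urothelium 0.53 and skeletal muscle 0.52. The part of any of these cell types in the neuron gene differences was not tested.

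**Figure D4:**
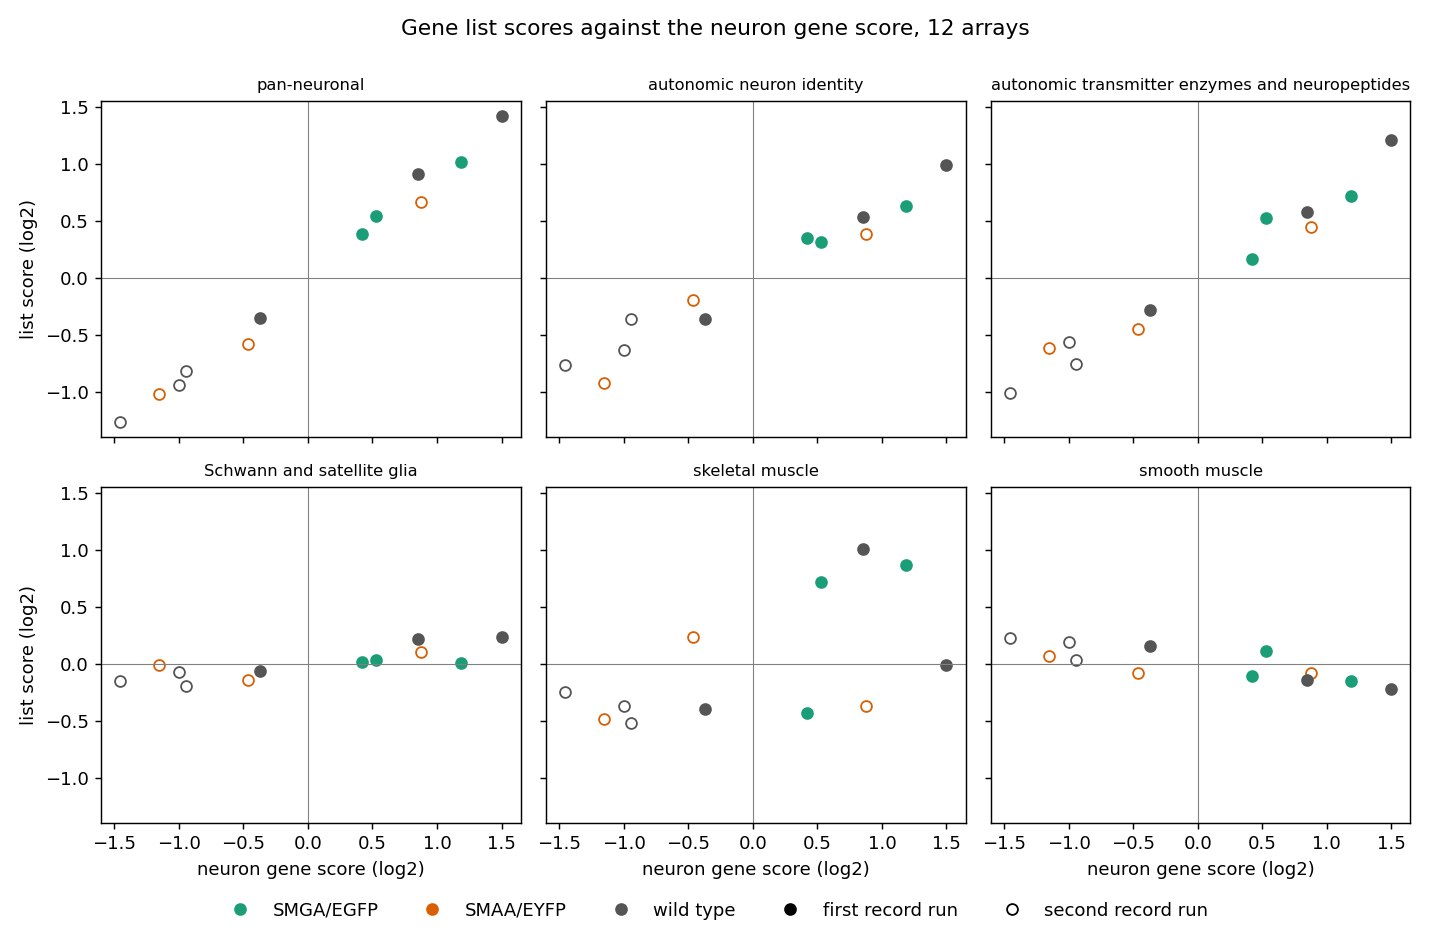
Mean log2 deviation of 6 gene lists (vertical axes) against that of the 9 neuron genes (horizontal axes), each point 1 of the 12 arrays, coloured by group (SMGA/EGFP, SMAA/EYFP, wild type), filled for the first record run and open for the second. The 3 neuronal lists rise along the diagonal, glia rise little, skeletal muscle scatters, and smooth muscle slopes slightly down.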

How the data were processed

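RNA of 12 whole bladders was measured on 12 one-colour arrays. The deposited values are linear intensities. The submitters' processing notes name GCOS without a version as the authors' software; the algorithm and detection calls are not given in the sources used here. The mean between the 2nd and 98th percentile was 1499.55 to 1499.59 on every array, so each had been scaled by 1 factor. Groups came from the labels' sample source. Control probe sets (64 of 45101) were left out; log2(intensity + 16) was quantile-normalized, and the 22518 probe sets above the median of all means were tested by limma's lmFit and eBayes (version 3.58.1, R 4.3.3, intensity trend, two-sided, all 12 arrays in the fit, Benjamini-Hochberg at 0.05). Errors of log2 differences are limma's SE. The number of arrays limits the precision. Correlations used numpy 2.4.6 and Python 3.11.15. Both were tested on simulated data.

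Symbols came from the platform's annotation: 34945 probe sets had 1 symbol, 932 several and 9160 were not listed, and 0 symbols needed updating. No paired analysis was possible because the labels carry no replicate numbers. Named genes were the 9 members, the 12 genes of highest r with their score, the 4 genes of highest level in each neural list, and sex genes as a check. Fabp7, Cyb561, Pnmt, Acta1, Myl1, Mylpf, Myh3 and Neb were named after their values were seen. The members and lists were chosen with earlier results of these data known. Alternatives were other scalings, pseudocounts, filters, variance settings, array weights, fewer arrays, the record run as a block, and leaving out each array.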

Additional observations from a re-analysis of the deposited data

Results flagged for a closer look

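One result met a rule for a closer look. The Elavl4 probe set of second highest level had every SMGA/EGFP array below the mean of the first-run wild type and every SMAA/EYFP array above the mean of the second-run wild type. The SMGA/EGFP effect within its run was -0.23 ± 0.51 (SE) and the SMAA/EYFP effect within its run was 1.07 ± 0.51. They differed by -1.30 ± 0.73, and limma's test of that difference did not pass (unadjusted p = 0.0964, Benjamini-Hochberg adjusted p = 1.00). Among the 12 tested probe sets, no array of wild type (n = 6) lay apart from the rest by Dixon's criterion, which by chance marks about 1 group in 20.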

How the results depend on the processing

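In the comparisons of genotypes, 0 neuron probe sets passed under every alternative run, and the number of correlated pairs was 21 to 27 of 36, against 24. The median difference of SMGA/EGFP from wild type was 0.00 with the record run as a block (0.98 without), and that of SMAA/EYFP was 0.91 (-0.05 without). This setting is the same fit as the within-run comparisons above, so it repeats them and is no separate check. With probe sets above the 75th percentile only, which leaves 4 probe sets of 3 genes, the median was -0.05 for SMGA/EGFP against SMAA/EYFP and 0.31 for wild type of the first against the second run. Array weights gave 5 passing probe sets in wild type of the first against the second run (175 of all 22518), a median of 0.67 for SMAA/EYFP against wild type, against -0.05, and a median of -1.74 for the difference between the within-run effects, against -0.77.

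Leaving out each array in turn, the median was 0.74 to 1.38 for SMGA/EGFP and -0.80 to 0.52 for SMAA/EYFP against wild type, and 0.60 to 1.85 between the transgenic groups. Within the runs it was -0.60 to 0.50 for SMGA/EGFP and 0.37 to 1.36 for SMAA/EYFP, with -1.41 to -0.25 for the difference between these effects. In wild type of the first against the second run it was 1.46 to 2.62, with 0 to 9 probe sets passing, 9 without wild type 3. The cause was not tested. The main probe sets of single genes changed sides of the threshold 10 times, always to passing in that last comparison, and none reversed. The fit on only the arrays compared was not run for the difference between the within-run effects, which uses all arrays. No paired analysis was possible because the labels carry no replicate numbers. With 3 arrays in a cell, the SE of a log2 difference reached 1.13, for Snap25 between the transgenic groups. With no filter all 20 probe sets were tested, dim ones included, and 0 passed in any comparison.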
